A study of Mus musculus with 8 samples.

Results

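The heme synthesis pathway and the main receptor for iron uptake were followed in hematopoietic stem cells (HSCs) of mice with an induced deletion of Marchf5. This gene encodes MITOL, a ubiquitin ligase of the outer mitochondrial membrane. From the table of read counts, with 22065 named genes, 8 were taken by symbol. They were 7 enzymes of heme synthesis (Alas1, Alad, Uros, Urod, Cpox, Ppox and Fech) and the transferrin receptor Tfrc. They were taken for their place in the pathway, all 8 were in the table, and all 8 passed the filter on low counts. The question put to them was whether the steps that run inside the mitochondrion and the steps that run in the cytosol differed between the groups in the same way.

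The cells were long-term HSCs sorted as CD150+ CD48- EPCR+ Lineage- from the bone marrow of C57BL/6 mice aged 8 to 10 weeks, 100 cells a library. The paper's definition of long-term HSCs also includes CD117 (c-Kit). Mitol Δ/Δ HSCs (labelled Mitol KO, 4 libraries) came from Mitol Flox/Flox mice carrying MX1-cre, and control HSCs (4 libraries) from Mitol Flox/Flox mice without it. Both groups received Poly:IC, which induces interferon and through it MX1-cre, and both were sorted 1 week later. Whether their response to Poly:IC was alike was not tested. MX1-cre acts in the blood lineage at large and in other interferon-responsive cells, not in HSCs alone. The labels do not say whether the 4 libraries of a group came from separate mice, so each p-value measures the spread between these libraries.

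Heme is an iron-holding ring that serves cytochromes, catalase and, in red cells, hemoglobin. Its synthesis starts in the mitochondrion, where ALAS1 joins glycine and succinyl-CoA, and moves to the cytosol for steps that include those of ALAD, UROS and UROD. The pathway then returns to the mitochondrion, where CPOX removes carboxyl groups, PPOX oxidizes the ring and FECH inserts iron. Non-erythroid cells use ALAS1 for the rate-limiting step, and red cell precursors use ALAS2. Iron reaches most cells bound to transferrin, which TFRC carries into endosomes. Tfrc mRNA is known to be stabilized in iron-poor cells by iron regulatory proteins bound to hairpins of its 3′ UTR, called iron-responsive elements, and erythroid and dividing cells are known for high TFRC.

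The iron-responsive hairpins are shown first, because they are the feature that sets the receptor's mRNA apart from those of the enzymes. A pattern of C, 5 bases, the loop CAGTGN and 5 bases pairing with the first 5 was searched on the transcript strand in the annotated 3′ UTRs of 20658 genes (GENCODE vM39). It was found in 124 of them (0.600%), with 0 sites in the 7 enzymes and 4 sites in Tfrc, the most in any gene. The loop is in capitals. The sites lie on the plus strand of chromosome 16 of GRCm39.
Tfrc site 1, chr16:32450038-32450064: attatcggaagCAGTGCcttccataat
Tfrc site 2, chr16:32450417-32450443: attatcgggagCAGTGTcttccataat
Tfrc site 3, chr16:32450482-32450508: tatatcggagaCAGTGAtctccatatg
Tfrc site 4, chr16:32450529-32450555: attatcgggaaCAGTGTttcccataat

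Promoters, from 250 bases before to 50 bases after a start site, were matched in RefSeq (GRCm38.p6) for 7 of the 8 genes. The mitochondrial enzyme Fech was not among them and was not searched. They were searched on both strands for the E-box CACGTG, the GATA letters AGATAA and TGATAA, a spelling of the NRF1 half-site (TGCGCA) and the ATF4 element TGATGNAA. CACGTG was found in a promoter of each of the 3 cytosolic enzymes and in none of Alas1, Cpox, Ppox and Tfrc, against 7.15% of 32851 promoters. All shares given here are per promoter, whereas Alad, Uros, Alas1 and Tfrc were each searched in 2 promoters, so the rates are not alike. For Uros, CACGTG was in 1 promoter only, at the far end of the window, 250 bases before the start site. The GATA letters were found in Cpox and Uros, against 18.6% of promoters with either of them, and TGCGCA in Cpox alone, against 7.76%. Other spellings of an NRF1 site were not searched, so a promoter without TGCGCA is not shown to lack such a site. TGATGNAA, held by 3.97% of promoters, was in none of the 7 genes. The promoter of Cpox, the enzyme that was past the threshold below, is shown whole with its GATA letters and TGCGCA in capitals, followed by the stretch around a CACGTG (capitals) of Alad and of Urod and around the GATA letters (capitals) of Uros, all read 5′ to 3′ on the gene's strand. A match of letters does not show that a factor binds there.
Cpox, plus strand, chr16:58669958-58670257: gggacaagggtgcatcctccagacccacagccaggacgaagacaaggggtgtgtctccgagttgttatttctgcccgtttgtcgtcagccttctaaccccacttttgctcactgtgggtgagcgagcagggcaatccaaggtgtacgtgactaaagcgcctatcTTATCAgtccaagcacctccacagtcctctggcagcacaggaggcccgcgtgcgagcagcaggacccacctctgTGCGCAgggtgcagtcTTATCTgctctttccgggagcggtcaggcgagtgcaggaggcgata
Alad, minus strand, chr4:62519908-62519961: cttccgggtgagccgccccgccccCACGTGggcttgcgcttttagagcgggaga
Urod, minus strand, chr4:116994433-116994486: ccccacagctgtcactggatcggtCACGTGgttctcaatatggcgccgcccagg
Uros, minus strand, chr7:133702539-133702592: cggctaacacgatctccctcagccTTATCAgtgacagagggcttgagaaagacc

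Of the 8 genes, 2 were higher in Mitol Δ/Δ HSCs, Cpox and Tfrc, and 0 were lower, by the quasi-likelihood test of edgeR at a Benjamini-Hochberg adjusted p under 0.05 over all 16444 genes tested. Over all genes tested, 8.43% passed, 4.68% as higher and 3.75% as lower. Cpox was 1 of the 4 mitochondrial enzymes, and 0 of the 3 cytosolic enzymes passed, although Alad fell just short. Cpox and Tfrc were also the genes whose 4 Mitol Δ/Δ libraries all lay above the 4 control libraries, which in the table as a whole, in either direction, held for 15.4% of genes. The median log2 fold change of all genes tested was -0.02. Both calls were narrow. The count of genes past the threshold was 0 with upper-quartile normalization and 0 with limma-voom, and 3 with DESeq2 or with edgeR's RLE normalization, where Alad passed as well. It was 1 without Mitol Δ/Δ replicate 1, 0 without Mitol Δ/Δ replicate 2 or 3 or any 1 of the 4 control libraries, and 3 without Mitol Δ/Δ replicate 4. Without both Mitol Δ/Δ replicates 3 and 4 it was 1, Alad. Over all genes, 1386 were past the threshold with every library, 359 to 2501 with 1 left out and 2422 without both.

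**Figure D1:**
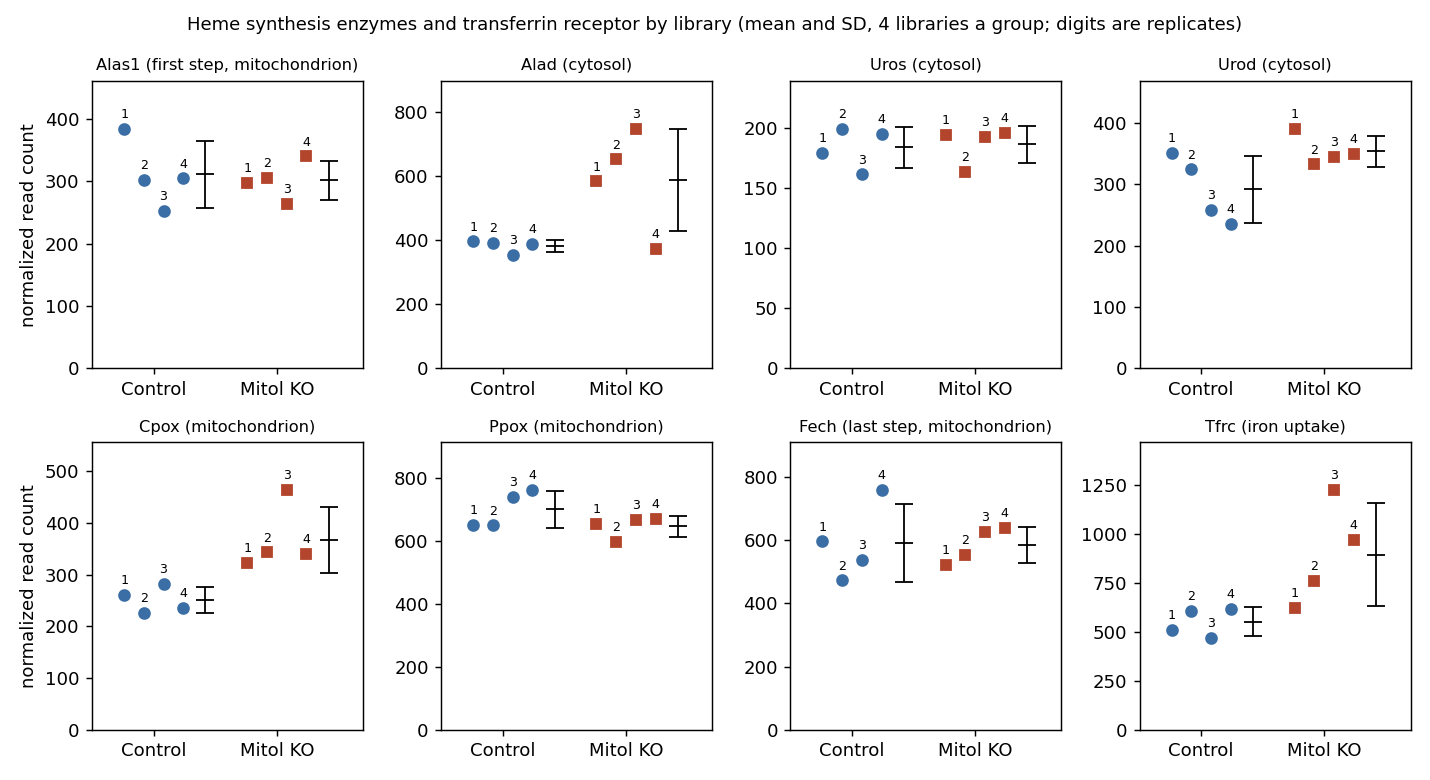
Normalized read counts (vertical axes, from 0) of the 8 genes in each control (blue circles) and Mitol KO (red squares) library, with digits for replicates and black bars for the mean and SD of 4 libraries. Cpox and Tfrc have every Mitol KO library above every control library, and Alad has 3 Mitol KO libraries above the controls and 1 below their mean.

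The libraries held 7214935 to 12398138 counts on named genes. Marchf5 itself ran from 232 to 308 in Mitol Δ/Δ libraries and from 262 to 333 in controls, in counts divided by size factors. A count per gene does not separate deleted from remaining exons, so these counts do not show the deletion. The paper states that deletion of the gene was checked by PCR. Mitol Δ/Δ replicates 3 and 4 stood apart by some red cell genes, not all the same in each. Replicate 3 had 1048 normalized counts of the globin gene Hbb-bs and 1387 of Slc4a1, the red cell anion exchanger, where no other library passed 19.7 and 13.2. Replicate 4 had 523 of Car1, a red cell carbonic anhydrase, where no other library passed 52.8. Ermap stood at 138 and 249 in replicates 3 and 4 and at 19.7 or less elsewhere, and Rhag at 114 and 218 against 91.4 or less. Other genes of the erythroid list went differently. Replicate 4 had 8.46 of Hbb-bs, 0 of Slc4a1 and 30.7 of Epb42, the last against 43.3 to 91.5 in controls. Car2 (3642 and 3631) and Nfe2 (1724 and 1693) were lowest in replicates 3 and 4. The megakaryocyte gene Itga2b was also high in replicates 3 and 4, at 1111 and 1440 against 589 or less elsewhere. The values of Alad, Cpox and Tfrc are therefore given without replicate 3, without replicate 4 and without both, below. Of the gate's genes, Slamf1 (CD150) differed by 0.56 on the log2 scale (adjusted p = 0.0501), Procr (EPCR) one of -0.34 (adjusted p = 0.179), and Cd48 was higher, at 22.2 to 63.4 against 4.49 to 21.7 normalized counts (edgeR, adjusted p = 0.0450). Kit (CD117), also part of the paper's gate, was lower by 0.75 on the log2 scale (edgeR, adjusted p = 0.0070). In bulk libraries, fewer cells of a type and less RNA per cell cannot be told apart.

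Alas1, the gatekeeper of the pathway in non-erythroid cells, spans 106110642 to 106135734 on chromosome 9 (GRCm39, as for the genes that follow). Normalized counts (deposited counts divided by DESeq2's size factors) of Alas1 were 297, 306, 264 and 340 in Mitol Δ/Δ replicates 1 to 4 and 384, 302, 252 and 304 in control replicates 1 to 4. The control libraries alone spanned the whole range of the Mitol Δ/Δ libraries. The log2 fold change was -0.06 (SE 0.14, 95% interval -0.37 to 0.25, adjusted p = 0.829 by edgeR), so a change beyond 1.19-fold upward or below 0.772-fold lay outside the interval. The erythroid enzyme of the same step, Alas2, not among the 8 genes, had 147, 162, 220 and 147 against 158, 144, 122 and 211 normalized counts, with Mitol Δ/Δ replicate 3 at the top of its group. Its log2 fold change was 0.07 by edgeR (adjusted p = 0.858). Of the exonic bases of Alas1, 21.6% are shared with a non-coding gene on the opposite strand. The strand setting of the counting is not given in the sources used here. The paper describes double-stranded cDNA and Nextera XT libraries, with no step that keeps the strand. Reads on shared bases then carry no record of their strand.

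Alad opens the cytosolic steps by joining precursor molecules into a pyrrole, and lies on chromosome 4 from 62423283 to 62438587. Its normalized counts were 583, 652, 747 and 371 in Mitol Δ/Δ and 396, 391, 354 and 389 in control libraries. The first 3 Mitol Δ/Δ libraries were well above every control library, and the fourth was within the control range. The control libraries were the tightest of any of the 8 genes, with a coefficient of variation of 4.96%, against 27.1% in Mitol Δ/Δ. The log2 fold change was 0.61 (SE 0.18, 95% interval 0.22 to 0.99, adjusted p = 0.0536 by edgeR), and the 2-sided exact permutation test gave p = 0.114. The adjusted p was 0.0123 by DESeq2 and 0.0492 with edgeR's RLE normalization. It was 0.0024 without Mitol Δ/Δ replicate 4, at a log2 fold change of 0.79, and 0.135 without replicate 3, at 0.48. Without both replicates 3 and 4, Alad had a log2 fold change of 0.69 and was past the threshold (edgeR, adjusted p = 0.00461).

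Uros and Urod finish the cytosolic steps by closing the ring and trimming its side chains. Uros (chromosome 7, 133285987 to 133311801) had 194, 163, 192 and 196 normalized counts in the Mitol Δ/Δ libraries and 179, 199, 161 and 195 in the controls. The groups covered nearly the same range, and the log2 fold change was 0.0037 (SE 0.14, 95% interval -0.31 to 0.31, adjusted p = 0.991 by edgeR). Urod (chromosome 4, 116844840 to 116851610) had 391, 333, 345 and 349 against 351, 325, 258 and 235. Its Mitol Δ/Δ libraries were close together while the controls fell into a higher and a lower pair, the higher pair within or near the Mitol Δ/Δ range. The log2 fold change of Urod was 0.26 (SE 0.14, 95% interval -0.04 to 0.57, adjusted p = 0.256 by edgeR). Zswim5, on the opposite strand, shares 73.6% of the exonic bases of Urod, and its own count was low, with a mean of 37.8 in Mitol Δ/Δ and 35.2 in control libraries. How reads on the shared bases were counted is not known, so the count of Zswim5 does not show which gene they came from.

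Cpox, the first enzyme back in the mitochondrion, which removes carboxyl groups from coproporphyrinogen, lies on chromosome 16 from 58490414 to 58537999. Its normalized counts were 323, 343, 463 and 340 in Mitol Δ/Δ and 261, 226, 283 and 236 in control libraries. The other Mitol Δ/Δ libraries lay close together below replicate 3, and no library crossed into the other group. Cpox was 1.44-fold higher (95% interval 1.16 to 1.80), a log2 fold change of 0.53 (SE 0.15, adjusted p = 0.0446 by edgeR). The 2-sided exact permutation test gave p = 0.0286, the smallest that 4 against 4 libraries allow. The log2 fold change was 0.41 without Mitol Δ/Δ replicate 3 (edgeR, adjusted p = 0.105), 0.58 without replicate 4 (adjusted p = 0.025) and 0.41 without both (adjusted p = 0.0951). Over all 8 fits that left out 1 library the log2 fold change stayed between 0.41 and 0.59, with an adjusted p under 0.05 in 1 of them.

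Ppox and Fech complete the ring and insert the iron. Ppox (chromosome 1, 171100969 to 171109385) had 654, 598, 666 and 670 normalized counts in the Mitol Δ/Δ libraries and 650, 649, 739 and 761 in the controls. The groups overlapped, with the upper pair of controls above every Mitol Δ/Δ library. The log2 fold change was -0.13 (SE 0.10, 95% interval -0.35 to 0.08, adjusted p = 0.420 by edgeR). Exons of B4galt3 and of a non-coding gene on the opposite strand cover 39.5% of the exonic bases of Ppox.

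Fech (chromosome 18, 64585985 to 64623322) shares no exonic base with another gene. Its normalized counts were 522, 553, 625 and 638 in Mitol Δ/Δ and 596, 472, 538 and 758 in control libraries. The controls held both the lowest and the highest value. The log2 fold change was -0.04 (SE 0.14, 95% interval -0.35 to 0.28, adjusted p = 0.903 by edgeR).

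**Figure D2:**
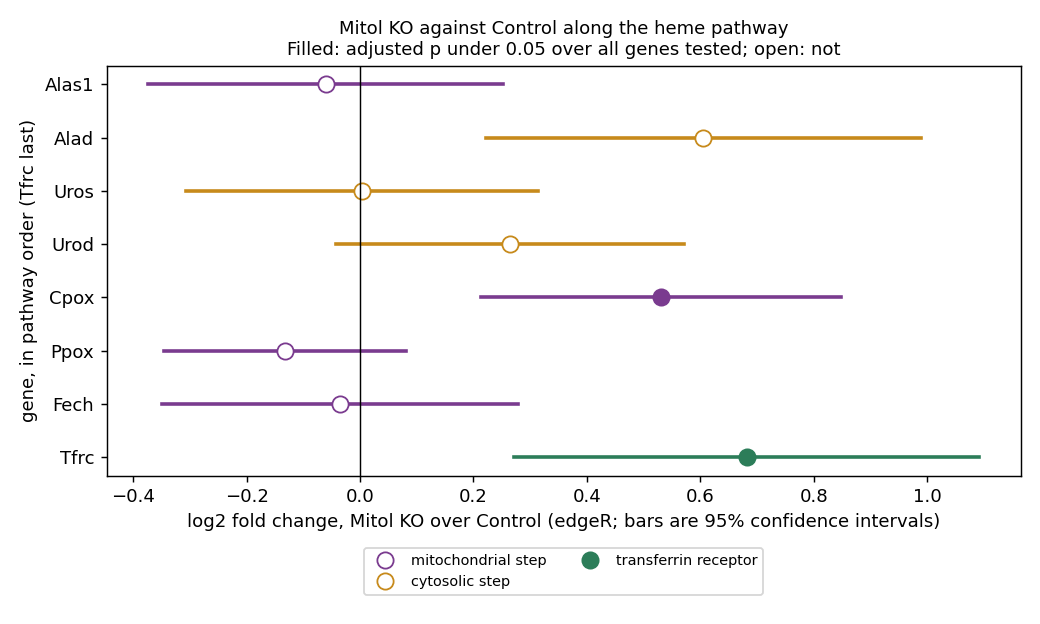
Log2 fold change of Mitol KO over Control (horizontal axis, bars for 95% intervals) for the 7 enzymes in pathway order and for Tfrc. Filled points, those with an edgeR adjusted p under 0.05, are Cpox and Tfrc, and the intervals of Alas1, Uros, Urod, Ppox and Fech cross 0.

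Tfrc lies on chromosome 16 from 32427556 to 32451612, and its 3′ UTR of 2458 bases holds the 4 matches to the hairpin pattern printed above. Hairpins that differ from the pattern were not searched for, and folding was not assessed. It had 621, 760, 1224 and 972 normalized counts in the Mitol Δ/Δ libraries and 509, 609, 467 and 618 in the controls. Mitol Δ/Δ replicate 1 was barely above the highest control library (620.7 against 617.8), and replicates 3 and 4 were far above all of them. Tfrc was 1.60-fold higher (95% interval 1.21 to 2.13), a log2 fold change of 0.68 (SE 0.19, adjusted p = 0.0450 by edgeR), the largest among the 8 genes. The 2-sided exact permutation test gave p = 0.0286. Tfrc differed by 0.50 on the log2 scale without Mitol Δ/Δ replicate 3 (edgeR, adjusted p = 0.102), 0.66 without replicate 4 (adjusted p = 0.0436) and 0.33 without both (adjusted p = 0.169). Over the 8 fits that left out 1 library the difference ran from 0.50 to 0.83, with an adjusted p under 0.05 in 2 of them.

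The values of other measurements that differed between the same libraries stand beside those of Cpox and Tfrc. Gata1, the master factor of red cells and platelets, had 114, 131, 297 and 305 normalized counts in the Mitol Δ/Δ libraries and 25.1, 31.9, 22.6 and 6.29 in control libraries, a log2 fold change of 3.30 (SE 0.45, adjusted p = 0.0038 by edgeR). Of 17 erythroid markers 16 were in the table and 11 were tested, 2 of them higher (Gata1 and Hbb-bt) and 1 lower (Nfe2). Among all genes tested, 4.68% were higher and 3.75% lower. The summed level of the 16 ran from 10890 to 15180 in Mitol Δ/Δ and from 11510 to 13420 in control libraries. Large parts of it were Car2, Zfpm1, Nfe2 and Tal1, with control means of 4600, 2742, 2234 and 1816. The sum therefore says little about genes of low count, such as Gata1 and Klf1. Klf1, an erythroid factor, had 10.2, 21.8, 92.5 and 103 in Mitol Δ/Δ and 1.32 to 19.8 in control libraries, so it was high in replicates 3 and 4, as Tfrc was.

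Proliferation genes gave another order of the libraries. Of 12 tested, 8 were higher in Mitol Δ/Δ HSCs and 0 lower, where 4.68% and 3.75% of all genes tested were. The median log2 fold change of the 12 was 1.08. Their summed level was 24890, 25180, 17250 and 11510 in Mitol Δ/Δ replicates 1 to 4 against 7518 to 11080 in control libraries. Replicates 1 and 2 led and replicate 4 was close to the controls. Rrm2, which makes deoxyribonucleotides, was higher by 2.18 on the log2 scale (adjusted p = 0.0034) and Ccna2, a cyclin of S and G2 phase, by 1.90 (adjusted p = 0.0119), both by edgeR. The part of erythroid or dividing cells in the values of Cpox, Tfrc and Alad was not tested.

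The mitochondrial and the cytosolic steps were also set against each other within each library, as the mean log2 normalized count of Alas1, Cpox, Ppox and Fech minus that of Alad, Uros and Urod. The difference was 0.27, 0.39, 0.37 and 0.68 in Mitol Δ/Δ and 0.60, 0.37, 0.74 and 0.79 in control libraries. Mitol Δ/Δ replicates 1 to 3 lay at the low end together with control replicate 2, and Mitol Δ/Δ replicate 4 lay among the other controls. The means were 0.43 ± 0.18 and 0.63 ± 0.19 (SD, n = 4), 0.20 lower in Mitol Δ/Δ HSCs, a gap close to 1 SD of either group. No test was made on this score.

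The gap came with a larger difference on the cytosolic than on the mitochondrial side. The mean log2 normalized count of the cytosolic enzymes was 8.39 ± 0.14 in Mitol Δ/Δ and 8.09 ± 0.13 in control libraries, a difference of 0.30, and that of the mitochondrial enzymes 8.82 ± 0.08 and 8.72 ± 0.11, a difference of 0.10 (SD, n = 4). Summed counts of the cytosolic enzymes were 1168, 1147, 1284 and 916 in Mitol Δ/Δ against 926, 914, 773 and 819 in control libraries, with replicate 4 inside the control range. Summed counts of the mitochondrial enzymes overlapped throughout, at 1796 to 2018 and 1649 to 2059. Most of the gap was carried by Alad: without it the gap was -0.06. Without Uros or without Cpox it was -0.34 and -0.35, and without any 1 of the others between -0.20 and -0.13.

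**Figure D3:**
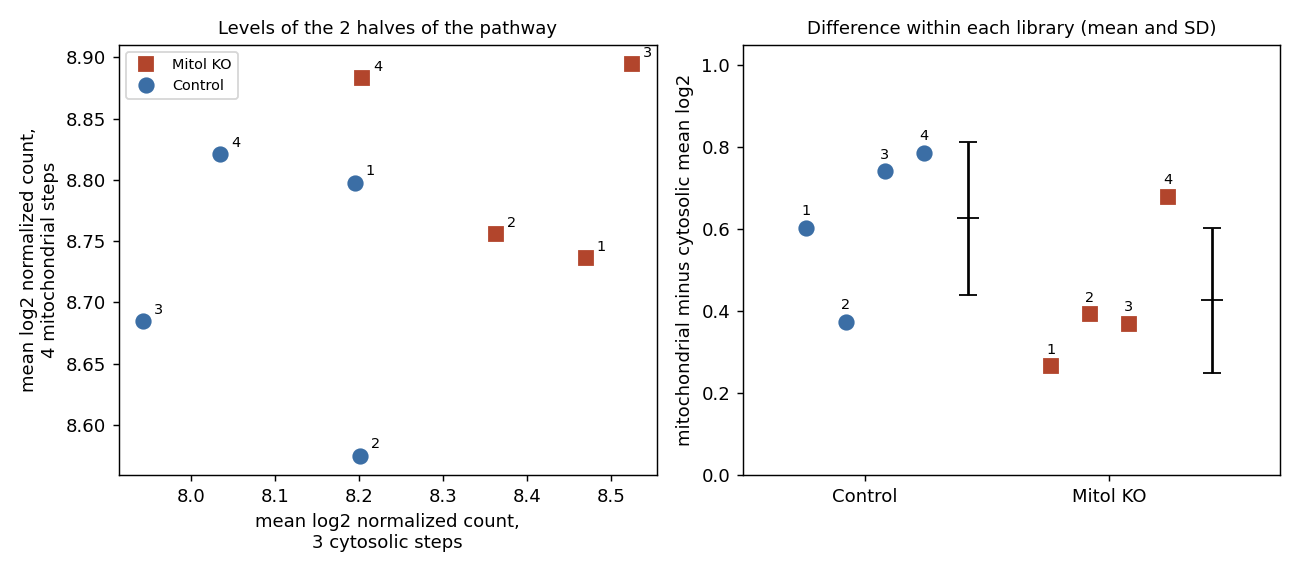
Left, the mean log2 normalized count of the 4 mitochondrial enzymes (vertical) against that of the 3 cytosolic enzymes (horizontal) in each library, with digits for replicates. Right, the difference of these means within each library with the group mean and SD, 0.43 ± 0.18 in Mitol KO and 0.63 ± 0.19 in Control, where the groups overlap.

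The profiles of the 8 genes across libraries were then set against each other. After each gene was centred on its own mean, Uros and Ppox differed least, by a root mean square of 0.146 on the log2 scale over the 8 libraries, then Ppox and Fech (0.169) and Alas1 and Uros (0.189). Alad was nearest to Cpox (0.254), and Cpox was also the gene nearest to Tfrc (0.269), while Alas1 and Tfrc were farthest apart (0.493). Among 12018 genes with at least 50 mean normalized counts, those with the profile most like Tfrc were Gas2l1 (0.160), Gm47586 (0.161) and Ccnj (0.175), and those most like Cpox were Opa3 (0.128), Rab27a (0.131) and Hnrnph2 (0.133). These distances describe 8 libraries that share their groups, and carry no test.

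Levels per kilobase used canonical transcript lengths of GENCODE vM39. The annotation used for counting is not given, so the order of the genes depends on those lengths. On this scale Ppox was the most abundant of the 8 in control libraries, with 248 ± 20.8 normalized counts per kilobase (SD, n = 4). Tfrc followed at 112.5 ± 15.2, and its control libraries, from 95.4 to 126, did not reach those of Ppox. Fech (91.3), Alas1 (91.0), Alad (86.7), Urod (76.7) and Cpox (75.3) came next, with ranges that overlapped between neighbours. Uros was lowest at 49.4. The ranks of Ppox, Urod and Alas1 are uncertain, because they share exonic bases with opposite-strand genes. Reads on those bases carry no record of strand in the libraries the paper describes, and the strand setting of the counting is not given. In Mitol Δ/Δ libraries Tfrc stood at 183 ± 53.8 per kilobase, its highest library above the highest of Ppox (237), and Alad (133) and Cpox (110) stood above Urod, Fech and Alas1 in group means.

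Of 74 other genes of heme and iron handling, in 8 lists, 72 were tested, 10 were higher in Mitol Δ/Δ HSCs and 1 was lower by edgeR, with a median log2 fold change of 0.15 against -0.02 for all genes tested. Over all genes tested, 4.68% were higher and 3.75% lower, and a list of about 10 genes with 1 higher is not set apart from that share. The number higher was 2 without Mitol Δ/Δ replicate 1 or 2, 4 without replicate 3 and 15 without replicate 4. It was 11, 0, 5 and 2 without control replicates 1 to 4 in turn, and 14 without both Mitol Δ/Δ replicates 3 and 4. The count of all genes past the threshold, in either direction, varied as well, from 1386 with all 8 libraries. It was 565, 492, 520 and 2501 without Mitol Δ/Δ replicates 1 to 4 in turn. Without control replicates 1 to 4 it was 1319, 359, 811 and 510, and without both Mitol Δ/Δ replicates 3 and 4 it was 2422. The lists below are given with the values of those past the threshold.

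Among 12 mitochondrial carriers and helpers of heme synthesis, 2 were higher. Slc25a39, the carrier that brings glutathione into mitochondria, had 931, 856, 869 and 692 normalized counts in the Mitol Δ/Δ libraries and 612, 503, 574 and 469 in the controls (edgeR, log2 fold change 0.62, adjusted p = 0.0148). Tmem14c, which is needed for the passage of porphyrin intermediates in the inner membrane, had 258, 213, 238 and 183 against 154, 156, 123 and 76.3 (edgeR, log2 fold change 0.80, adjusted p = 0.0436). Both had separate groups, with Mitol Δ/Δ replicate 4 the lowest of its group, as it was for Alad. The iron carriers Slc25a37 and Slc25a28, the mitoferrins, had log2 fold changes of 0.12 and 0.04 (edgeR, adjusted p = 0.683 and 0.859).

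Around Tfrc, 2 of the 12 tested genes of iron uptake, storage and export were higher. Steap3, the endosomal reductase that acts on iron delivered by TFRC, had 245, 261, 213 and 180 normalized counts in the Mitol Δ/Δ libraries and 162, 72.4, 143 and 88.9 in control libraries (edgeR, log2 fold change 0.93, adjusted p = 0.0358). Slc40a1, the iron exporter ferroportin, had 93.9, 81.1, 78.7 and 74.1 against 39.6, 52.1, 41.5 and 52.1 (edgeR, log2 fold change 0.80, adjusted p = 0.0392). The other transferrin receptor, Tfr2, had a log2 fold change of 0.08 (edgeR, adjusted p = 0.704), and the ferritin genes Fth1 and Ftl1 had 0.13 and -0.11 (edgeR, adjusted p = 0.353 and 0.495).

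Of 3 iron-sensing genes 1 was higher. Aco1, which encodes the iron regulatory protein IRP1, a protein that binds hairpins such as those of Tfrc, had 633, 606, 530 and 692 normalized counts in the Mitol Δ/Δ libraries and 484, 379, 439 and 406 in the controls (edgeR, log2 fold change 0.51, adjusted p = 0.0243). The groups were separate, with replicate 3 the lowest and replicate 4 the highest of the Mitol Δ/Δ libraries. Binding of the protein to Tfrc was not measured, and the part of Aco1 in the level of Tfrc was not tested. Ireb2, which encodes IRP2, had a log2 fold change of 0.15 (edgeR, adjusted p = 0.415).

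On the side of heme use and breakdown, 1 of 10 genes of breakdown and transport was higher. So were 3 of 8 genes listed as mitochondrial heme users or their partners, not all of which bind heme themselves. Hmox1, the inducible heme oxygenase that opens the ring and frees its iron, had 282, 408, 263 and 195 normalized counts in the Mitol Δ/Δ libraries and 56.7, 73.4, 90.4 and 164 in control libraries (edgeR, log2 fold change 1.54, adjusted p = 0.0158). Cycs, which encodes cytochrome c, had 205, 179, 134 and 85.7 against 67.3, 55.3, 78.2 and 64.7 (edgeR, log2 fold change 1.16, adjusted p = 0.0217). Cyc1 and Sdhb, of complexes III and II of the respiratory chain, had log2 fold changes of 0.62 and 0.48 (edgeR, adjusted p = 0.0409 and 0.0423).

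Hmox1 and Slc40a1 are also known from macrophages, and both were in a list of 8 macrophage markers chosen along with the others. Among all genes tested, 47.7% had a log2 fold change above 0 and 4.68% were higher. Of the list's 7 tested genes all 7 had a log2 fold change above 0, with a median of 0.73, and 2 were higher, Hmox1 and Slc40a1 themselves. The other 6 markers summed to 329.5 to 455 normalized counts in Mitol Δ/Δ and 186 to 324 in control libraries, and 0 of the 5 tested passed. Vcam1 came nearest, at 31.7 to 107 against 8.98 to 34.1 (edgeR, log2 fold change 1.60, adjusted p = 0.0558). Cd68 ran from 165 to 256 against 99.7 to 194, C1qb from 18.0 to 56.1 against 5.65 to 29.8, C1qa from 6.35 to 24.9 against 3.77 to 17.1, Csf1r from 29.6 to 73.6 against 40.5 to 58.0, and Adgre1, the defining F4/80 antigen, from 4.70 to 35.3 against 3.59 to 18.5. The part of macrophages in these values was not tested.

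Iron-sulfur cluster assembly, which shares iron with FECH, had 1 of 13 tested genes higher, the chaperone gene Hspa9, at 2220, 2147, 1810 and 1678 normalized counts in Mitol Δ/Δ against 1617, 1416, 1413 and 1138 in control libraries (edgeR, log2 fold change 0.47, adjusted p = 0.0324). Among 13 regulators, 0 were higher and 1 was lower. Nr1d2, a circadian repressor of the REV-ERB family, which is known to act on Alas1, had 311, 283, 223 and 254 against 406, 419, 410 and 537 (edgeR, log2 fold change -0.75, adjusted p = 0.0125). Its close relative Nr1d1 had a log2 fold change of -0.81 (edgeR, adjusted p = 0.0925), and Alas1 itself was past no threshold.

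**Figure D4:**
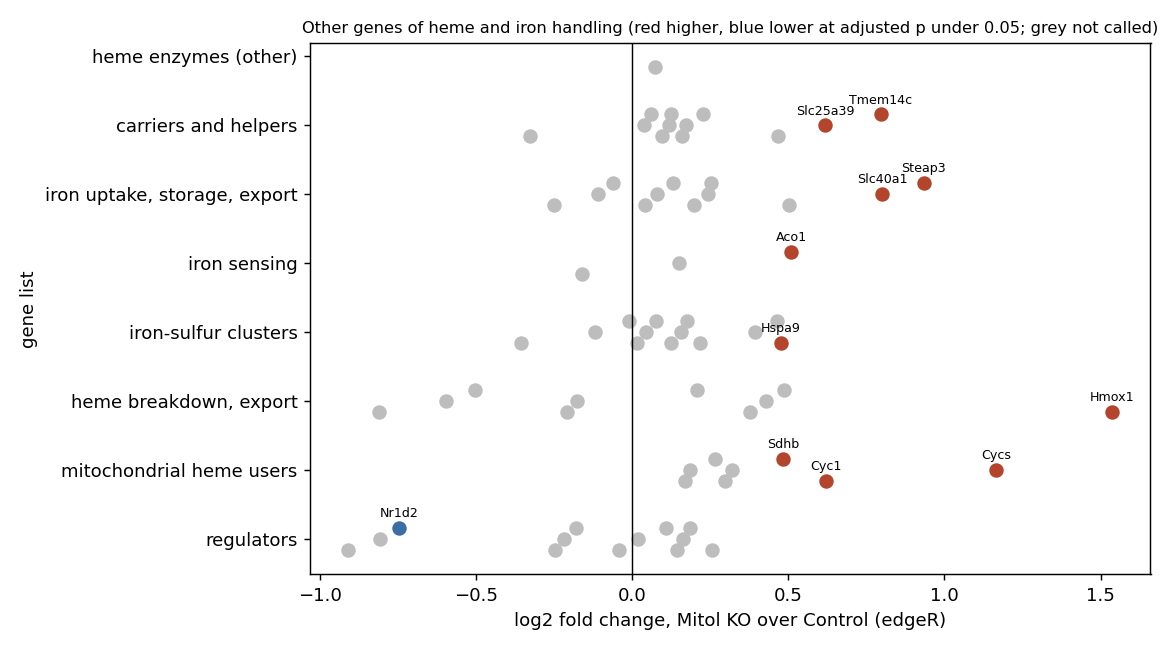
Log2 fold change of Mitol KO over Control (horizontal axis) for each tested gene of the 8 lists of heme and iron handling outside the 8 genes (rows). The 10 genes past the threshold as higher (red) are spread over 6 lists, and Nr1d2 (blue) is the 1 gene lower.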

How the data were processed

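The data are 8 RNA-seq libraries of 100 sorted HSCs each, 4 per group. The authors aligned single-end reads with STAR to mm39, merged alignments with SAMtools and deposited counts per gene from Subread, not normalized. The annotation and strand setting are not given in the sources used here. Libraries were made from double-stranded cDNA with a Nextera XT kit, and the paper describes no step that keeps the strand. Of 23094 rows, 1029 without a gene symbol (0.335% to 0.467% of counts) were left out of library sizes and tests, and the lowest row sum was 11. Of 22065 named genes, 21526 matched GENCODE vM39 (positions on GRCm39).

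Counts were tested with edgeR (version 4.0.16, R 4.3.3; quasi-likelihood, TMM, default expression filter, condition as the only term), with Benjamini-Hochberg adjustment over 16444 genes. Normalized counts used size factors of DESeq2 (version 1.42.0), with an offset of 1 before log2. Exact permutation tests were 2-sided over 70 arrangements. Alternatives were RLE and upper-quartile normalization, other filters, DESeq2, limma-voom (limma 3.58.1), a replicate block and each library left out. Fits were tested on simulated counts. The genes and lists were chosen with earlier results of these data known. Named genes were Marchf5, the 8 genes, list members past the threshold, Alas2, 4 gate markers and the 3 nearest profiles of Tfrc and Cpox. Results for 2 list genes, and an alternative that needs 1 of them, are not reported here. Other genes were named after their values were seen. Precision is limited by the 100 cells and 4 libraries a group, and since molecules carried no identifiers, reads can repeat 1 molecule.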

Additional observations from a re-analysis of the deposited data

Results flagged for a closer look

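In each group of 4 libraries, the value farthest from its neighbour was compared with Dixon's 95% limit for the 8 genes, 16 tests in all, and chance passes that limit in about 1 in 20 groups. Past it were 3. Cpox in Mitol Δ/Δ replicate 3 had 463.2 normalized counts, above the other Mitol Δ/Δ libraries, which lay between 323 and 343. Alad in control replicate 3 had 354.2, below the other controls at 389 to 396. Uros in Mitol Δ/Δ replicate 2 had 163.1, below the others at 192 to 196.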

How the results depend on the processing

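The number of the 8 genes past the threshold as higher, 2 by edgeR, was 0 with upper-quartile normalization and 0 with limma-voom, 3 with DESeq2 and 0 to 3 when 1 library was left out. The number lower was 0 in every alternative run. Over all genes, 1386 were past the threshold, against 2315 by DESeq2 and 359 to 2501 with 1 library left out. Other genes of heme and iron handling numbered 10 higher, 0 to 15 with 1 library left out, and 1 lower, 2 by DESeq2 and 1 to 2 with 1 library left out. Log2 fold changes near 0 changed sign, with the adjusted p far above the threshold. They were -0.0586 for Uros with upper-quartile normalization and -0.0241 with a mean count of at least 50, and with 1 library left out ran from -0.0537 to 0.0673 for Uros, from -0.147 to 0.0674 for Alas1 and from -0.129 to 0.112 for Fech. The gap between mitochondrial and cytosolic steps was -0.35 to -0.15 in the alternatives planned, and -0.35 to -0.06 when each enzyme but Alas1 was left out, an alternative chosen after seeing the data, with Alad giving -0.06. Leaving out both Mitol Δ/Δ replicates 3 and 4, also chosen after seeing the data, gave 1 of the 8 genes and 2422 of all genes past the threshold, and -0.0352 for Uros. The deviations of same-numbered libraries from their group means had correlations of -0.07 to 0.08. These correlations cannot show whether same-numbered libraries were prepared together, which the labels do not say. With the replicate block, 2 of the 8 genes and 1652 of all genes were past the threshold. The causes were not tested.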
